A study of Chlorocebus sabaeus with 10 samples.

Results

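The genes examined are 9 enzymes, transporters and regulatory proteins that set the balance between glucose production and glucose breakdown in the liver: PC, PCK1, PCK2, FBP1, G6PC and SLC37A4 on the gluconeogenic side, and GCKR, PFKFB1 and PKLR on the side of glycolysis control. They were chosen by name, and all 9 were found among the 23352 gene symbols (28078 transcripts) of the deposited table, each with 1 transcript. The livers came from 10 female vervet monkeys (Chlorocebus sabaeus, an Old World monkey). All animals had been kept on chow, and then 5 received a high fructose (HFr) diet and 5 stayed on chow for 6 weeks. Animals were assigned to the diets so as to balance age and body weight. In the study's clinical measures the mean age was still higher on HFr than on chow, a difference not marked as significant. Each animal gave 1 liver biopsy, which was frozen and sequenced as polyadenylated RNA in 1 library, so n counts animals, and no treatment other than the diet differed by label. Since only females were studied, the values describe 1 sex. The study's text does not give the feeding state or the time of day at biopsy.

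Gluconeogenesis builds glucose from lactate, alanine and glycerol, mostly in the liver during fasting, and it bypasses the irreversible steps of glycolysis with its own enzymes. Pyruvate is carboxylated and converted to phosphoenolpyruvate, fructose 1,6-bisphosphate and glucose 6-phosphate are each dephosphorylated, and glucose leaves the cell. In the fed state liver pyruvate kinase carries the opposite flow, and a bifunctional enzyme sets the level of fructose 2,6-bisphosphate, which activates phosphofructokinase and inhibits fructose bisphosphatase. Fructose enters this system at the triose phosphates, between the control points.

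The libraries held 2977282 to 4992505 estimated counts each, of which 34.7% to 73.6% lay on mitochondrial transcripts (mean 55.5% ± 11.8 on HFr and 55.4% ± 16.5 on chow, SD, n = 5 each, two-sided exact permutation p = 0.992). This left 864571 to 2657103 counts for nuclear transcripts, so the precision of a gene differed between animals. A normalized count is the estimated count as CPM, relative to the counts of the tested transcripts of its library, with that total corrected by TMM, the trimmed mean of M values. Transcript lengths are not given in the table, so levels of single genes were compared between animals. Ratios and summed levels of several genes also depend on length, and a gene's part in a sum is a part of counts. Of the hepatocyte markers, 10 of 10 with an entry had enough counts to be tested (summed level 41547 to 84036 normalized counts), while of 7 skeletal muscle genes with an entry 0 had enough counts. Of these, MYH2, MYH7, CKM and MB were at 0 counts in every library, and ACTA1, TNNT3 and MYLPF reached at most 8, 4 and 1 counts. In whole tissue, fewer cells of a type and less RNA per cell cannot be told apart.

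None of the 8 tested genes showed a difference between the diets beyond the spread between animals. The intervals were wide, and that of FBP1 (95%) ran from 0.84-fold to 2.59-fold of chow. PKLR had too few counts for the test. Of the 8 genes tested with edgeR's quasi-likelihood test, 0 had an adjusted p under 0.05. At an unadjusted p under 0.05 there were also 0, against 4.29% of all 7948 tested transcripts (2.06% higher and 2.23% lower on HFr). DESeq2 and limma also gave 0 of 8 at either threshold. For none of the 9 were the 2 diets free of overlap, a state reached by 0.541% of tested transcripts. The log2 fold change (HFr minus chow) was above 0 for 7 of the 8, compared with 49.8% of all tested transcripts, and its median was 0.28 against -0.00075 over all transcripts. Without HFr replicate 4, 5 of the 8 were above 0. The adjusted p was 0.9996 for each of the 8 genes. Among the 10 tested hepatocyte markers, 9 were higher and 1 lower on HFr (median log2 fold change 0.18). Their mean summed level was 63751 normalized counts on HFr and 63551 on chow. Of 6 tested genes of hepatocytes near the central vein, 0 were higher and 6 lower (median -0.25). An upward lean was thus also seen outside the 8 genes, but not in every list. Genes that vary together do not give independent signs.

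**Figure D1:**
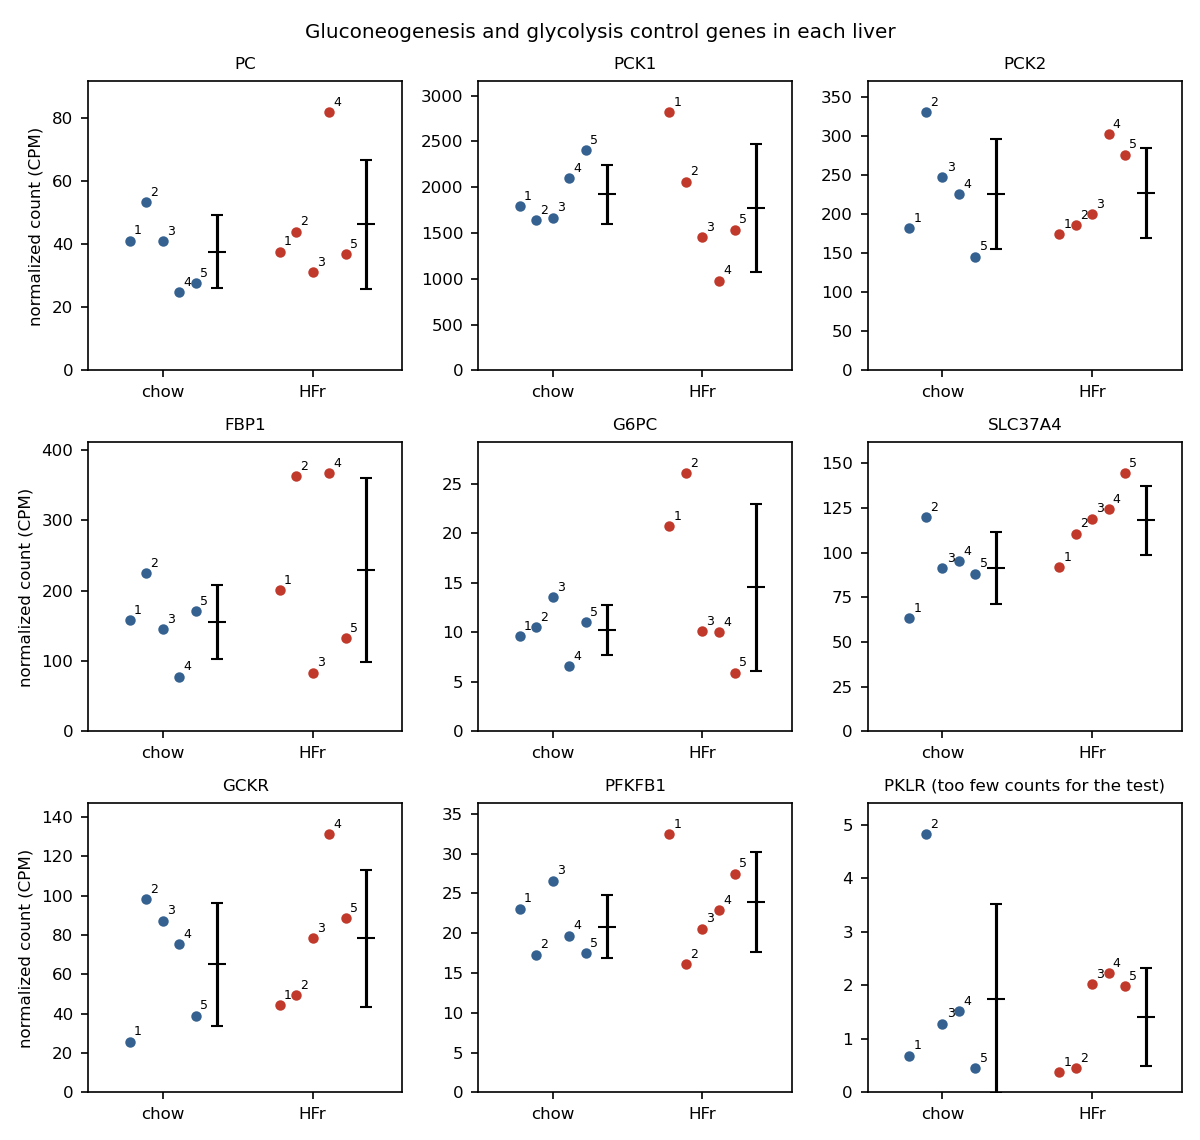
Normalized counts (CPM after TMM, linear axes from 0) of the 9 genes in each liver. Points are animals (blue chow, red HFr) labelled with their replicate number, and the bars give the mean and SD of 5 animals (the PKLR chow bar ends at the axis). The ranges of the diets overlap in every panel, and the G6PC values of HFr replicates 1 and 2 (20.7 and 26.0) lie above the other 8 livers.

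PC encodes pyruvate carboxylase, the mitochondrial enzyme that makes oxaloacetate from pyruvate and so opens the pathway. The gene lies on chromosome 1 of ChlSab1.1 from 7357246 to 7417998 on the plus strand, and 2 other annotated genes (LRFN4 and ENSCSAG00000027797) lie within its span. The normalized counts were 37.7, 44.0, 31.1, 81.8 and 36.8 in HFr replicates 1 to 5 and 41.1, 53.2, 41.1, 24.8 and 27.6 in chow replicates 1 to 5. HFr replicate 4 stood above all other animals, and the remaining HFr values lay inside the chow range. The means were 46.3 ± 20.4 and 37.6 ± 11.6 (SD, n = 5 each), with a log2 fold change of 0.29 (standard error 0.28, 95% interval -0.30 to 0.89, unadjusted p = 0.309 from edgeR). Without HFr replicate 4 the value was -0.024 (standard error 0.22).

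PCK1, the cytosolic phosphoenolpyruvate carboxykinase, is the isoenzyme whose transcription is known to be raised by glucagon and lowered by insulin. The gene is on chromosome 2 from 6549652 to 6556478 (minus strand) and had 3613 to 9193 counts per library. On HFr the normalized counts were 2816 in replicate 1, 2062 in replicate 2, 1458 in replicate 3, 980 in replicate 4 and 1537 in replicate 5. On chow they were 1797, 1641, 1667, 2101 and 2404 in replicates 1 to 5. Both the highest and the lowest of the 10 livers were thus HFr animals. HFr replicates 3, 4 and 5 lay below every chow animal, HFr replicate 1 above every chow animal, and HFr replicate 2 within the chow range. The means were 1771 ± 699 on HFr and 1922 ± 325 on chow (SD, n = 5 each), which corresponds to a coefficient of variation of 39.5% and 16.9%. The difference in spread was not tested. The log2 fold change was -0.12 (standard error 0.28, 95% interval -0.71 to 0.48, unadjusted p = 0.676 from edgeR), so the interval runs from 0.611-fold to 1.39-fold of chow. Leaving out HFr replicate 4 turned the value to 0.027, and leaving out HFr replicate 1 gave -0.36.

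PCK2 encodes the mitochondrial isoenzyme of the same reaction, which is less tied to fasting signals. Located on chromosome 24 from 1077447 to 1087607 (plus strand), it had 317 to 1508 counts per library. Its normalized counts were 174, 186, 200, 302 and 276 in HFr replicates 1 to 5 and 182, 330, 247, 225 and 146 in chow replicates 1 to 5. The chow animals held both extremes here, and the means were almost equal, at 228 ± 57.6 on HFr and 226 ± 70.2 on chow (SD, n = 5 each). The log2 fold change of 0.01 (standard error 0.24, 95% interval -0.51 to 0.53, unadjusted p = 0.971 from edgeR) changed sign with single animals, and was -0.12 without HFr replicate 4, -0.07 without HFr replicate 5, -0.06 without chow replicate 1 and -0.12 without chow replicate 5.

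The ratio of PCK1 to PCK2 counts within a library does not depend on scaling between libraries. It was 16.2, 11.1, 7.30, 3.24 and 5.57 in HFr replicates 1 to 5 and 9.88, 4.97, 6.74, 9.32 and 16.5 in chow replicates 1 to 5. The spread was about the same on both diets (means 8.67 ± 5.08 and 9.48 ± 4.40, SD, n = 5 each), and the ranges overlapped over most of their length. PCK1 over GCKR counts ranged from 7.48 to 63.3 on HFr and from 16.7 to 69.6 on chow.

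FBP1, liver fructose 1,6-bisphosphatase, catalyses the step that fructose 2,6-bisphosphate inhibits. Its position is chromosome 12 from 108453156 to 108483775 (plus strand) and had 154 to 1650 counts per library. The normalized counts were 201, 362, 83.5, 367 and 133 in HFr replicates 1 to 5. In chow replicates 1 to 5 they were 159, 225, 145, 77.8 and 171. HFr replicates 2 and 4 were above every chow animal, whereas HFr replicates 3 and 5 were below the chow mean. Of the 8 tested genes FBP1 had the largest log2 fold change, 0.56 (standard error 0.38, 95% interval -0.25 to 1.37, unadjusted p = 0.161 from edgeR), with means of 229 ± 130 and 155 ± 53.0 (SD, n = 5 each). The value hung on single animals. It was 0.76 without HFr replicate 3 (unadjusted p = 0.0407 and adjusted p = 0.979 from edgeR), 0.32 without HFr replicate 4 (unadjusted p = 0.415 from edgeR) and 0.33 without HFr replicate 2 (unadjusted p = 0.397 from edgeR).

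G6PC, the catalytic subunit of glucose 6-phosphatase in the endoplasmic reticulum, releases free glucose and is, like PCK1, a gene of the fasted liver. The gene, on chromosome 16 from 63381382 to 63391540 (minus strand), was measured at low depth with 13 to 116 counts per library. The normalized counts were 20.7, 26.0, 10.1, 9.997 and 5.94 in HFr replicates 1 to 5, and 9.60, 10.5, 13.6, 6.57 and 11.0 in chow replicates 1 to 5. Only HFr replicates 1 and 2 were above the chow range, and HFr replicate 5 was the lowest liver of the 10. The means were 14.6 ± 8.43 and 10.3 ± 2.53 (SD, n = 5 each), with a log2 fold change of 0.47 (standard error 0.35, 95% interval -0.29 to 1.23, unadjusted p = 0.202 from edgeR). Leaving out HFr replicate 5 gave 0.69 with an unadjusted p of 0.0462 from edgeR (adjusted p = 0.953). Leaving out HFr replicate 2 gave 0.13 (unadjusted p = 0.692 from edgeR), and HFr replicate 1 gave 0.32 (unadjusted p = 0.405 from edgeR).

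SLC37A4 is the transporter that brings glucose 6-phosphate into the endoplasmic reticulum for G6PC. With its gene on chromosome 1 from 110395612 to 110401358 (minus strand), it had 188 to 729 counts per library. The normalized counts were 91.9, 111, 119, 124 and 144 in HFr replicates 1 to 5 and 63.5, 120, 91.1, 95.01 and 88.2 in chow replicates 1 to 5. All 5 HFr animals were above the chow mean, which was the case for no other gene of the 9, and chow replicates 2 and 4 lay within the HFr range. SLC37A4 had the smallest p of the 8 genes, with means of 118 ± 19.1 and 91.6 ± 20.1 (SD, n = 5 each) and a log2 fold change of 0.37 (standard error 0.19, 95% interval -0.05 to 0.78, unadjusted p = 0.0794 from edgeR). The two-sided exact permutation test of its normalized counts gave p = 0.0794 also, where 0.00794 is the smallest value that 5 animals against 5 allow. The counts of G6PC over those of SLC37A4 gave 0.133 ± 0.0902 on HFr and 0.116 ± 0.0367 on chow (SD, n = 5 each), with HFr replicates 1 and 2 again highest at 0.225 and 0.235. When chow replicate 2 was left out, the estimate was 0.49 with an unadjusted p of 0.0288 from edgeR (adjusted p = 0.918), and without chow replicate 1 or HFr replicate 5 it was 0.26 or 0.28.

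GCKR encodes a regulatory protein of hepatic glucose uptake into glycolysis, whose inhibitory action is known to be relieved by fructose 1-phosphate. It is on chromosome 14 from 80100436 to 80123686 (minus strand), with 85 to 590 counts per library. The normalized counts were 44.5, 49.6, 78.3, 131 and 88.6 in HFr replicates 1 to 5 and 25.8, 98.1, 87.3, 75.3 and 39.1 in chow replicates 1 to 5. Each diet held animals under 50 and animals over 75, and the difference within a diet was larger than that between the means of 78.4 ± 34.9 and 65.1 ± 31.3 (SD, n = 5 each). The log2 fold change was 0.27 (standard error 0.36, 95% interval -0.51 to 1.05, unadjusted p = 0.476 from edgeR), with -0.0063 without HFr replicate 4 and 0.062 without chow replicate 1.

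PFKFB1 encodes the liver form of the bifunctional enzyme that makes and degrades fructose 2,6-bisphosphate. The gene, on chromosome X from 51016318 to 51071977 (minus strand), had 38 to 145 counts per library. The normalized counts were 32.4, 16.1, 20.6, 22.9 and 27.5 in HFr replicates 1 to 5 and 23.1, 17.3, 26.6, 19.7 and 17.5 in chow replicates 1 to 5. The highest and the lowest liver were both on HFr, and the means of 23.9 ± 6.27 and 20.8 ± 3.98 (SD, n = 5 each) differed by less than the SD. The log2 fold change was 0.18 (standard error 0.21, 95% interval -0.26 to 0.63, unadjusted p = 0.391 from edgeR), and 0.051 without HFr replicate 1. The ratio of FBP1 to PFKFB1 counts, the phosphatase over the enzyme that controls its inhibitor, ranged from 4.06 to 22.4 on HFr and from 3.95 to 13.0 on chow.

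PKLR, pyruvate kinase of liver and red cells, makes pyruvate from phosphoenolpyruvate in the fed liver. Its values were low in all libraries, with 1, 2, 5, 10 and 10 counts in HFr replicates 1 to 5 and 3, 22, 7, 3 and 1 counts in chow replicates 1 to 5. These summed to 28 on HFr and 36 on chow, too few for the filter on low counts. Whether the gene model or the counting missed reads of PKLR was not tested, so the low values may not give its expression. The annotated gene on chromosome 20 from 8540763 to 8545884 (plus strand) overlaps HCN3, and whether strand was used in the counting is not given in the sources used here. Chow replicate 2 stood at 4.82 normalized counts, and the other 9 livers between 0.377 and 2.22. When every transcript with a count was tested, the edgeR estimate for PKLR was -0.35 on the log2 scale with a standard error of 0.61 (unadjusted p = 0.567).

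**Figure D2:**
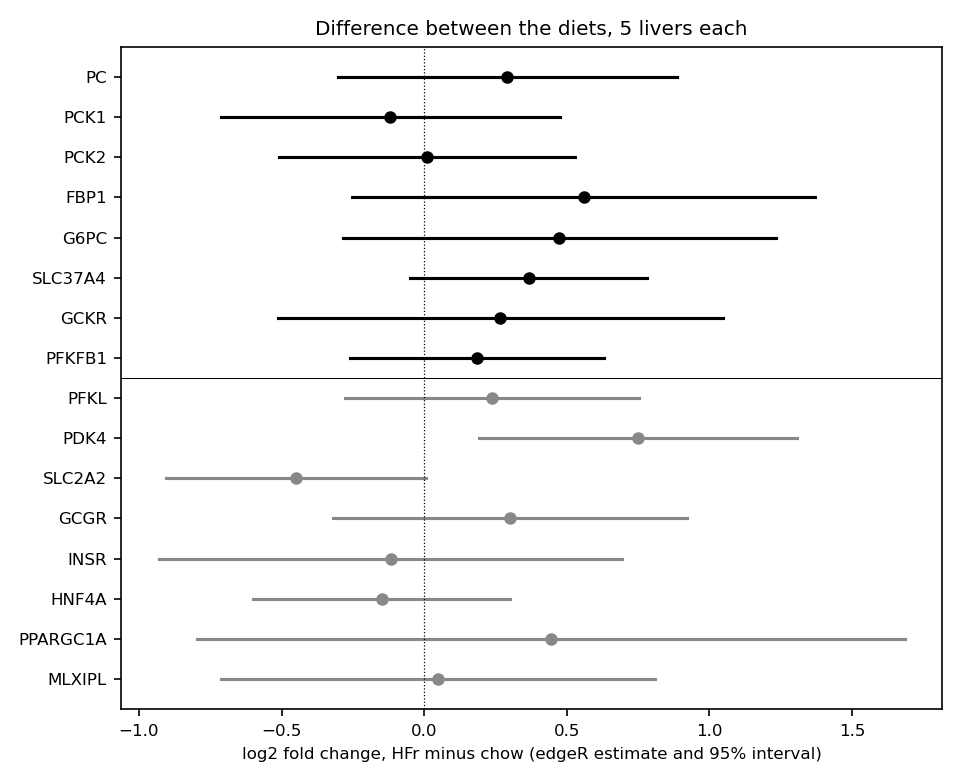
Log2 fold change between the diets (HFr minus chow, horizontal axis) from edgeR with its 95% interval, for the 8 tested genes (black, above the line) and for 8 other genes of the pathway (grey). All 8 black intervals cross 0, and of the grey intervals the one of PDK4 (0.19 to 1.31) does not.

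Other steps of the pathway were examined through 4 lists with 79 genes in all, of which 46 were tested. For 11 listed symbols no values were analysed here, GAPDH, LDHA and PKM among them. Of these 46, edgeR gave 1 gene an unadjusted p under 0.05 and 0 genes an adjusted p under 0.05. That 1 gene is 2.17% of the tested list members, below the 4.29% of all tested transcripts. Among the enzymes shared by both directions (5 tested), 3 were higher and 2 lower on HFr with a median log2 fold change of 0.18. Among the genes of glycolytic control and lactate (8 tested), 6 were higher and 2 lower with a median of 0.08. PFKL, the liver phosphofructokinase, ranged from 14.5 to 26.9 normalized counts on HFr and from 11.0 to 23.8 on chow, with a log2 difference of 0.24 (standard error 0.24).

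Of the 16 tested genes for precursor supply and glucose output, 9 were higher and 7 lower on HFr with a median log2 fold change of 0.09. The 1 gene past the unadjusted threshold was PDK4, the pyruvate dehydrogenase kinase that blocks pyruvate oxidation and so spares it for carboxylation. PDK4 had 263, 162, 221, 115 and 187 normalized counts in HFr replicates 1 to 5 and 89.6, 122, 108, 170 and 73.1 in chow replicates 1 to 5. All 5 HFr animals were above the chow mean, while chow replicates 2 and 4 lay within the HFr range. Its log2 fold change was 0.75 (standard error 0.26, 95% interval 0.19 to 1.31, unadjusted p = 0.0120 and adjusted p = 0.9996 from edgeR). With library size as the only scaling the unadjusted p was 0.0542, and over all alternatives the adjusted p stayed between 0.838 and 1.

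SLC2A2, the glucose transporter through which hepatocytes take up and release glucose, had a fitted value below 0. It stood at 204, 140, 147, 201 and 171 normalized counts in HFr replicates 1 to 5 and 151, 309, 231, 269 and 217 in chow replicates 1 to 5. Each of the 5 HFr livers was under the mean of the chow livers, and chow replicate 1 lay among them. The log2 fold change was -0.45 (standard error 0.21, 95% interval -0.90 to 0.0055, unadjusted p = 0.0525 from edgeR). The unadjusted p from edgeR was 0.0118 without chow replicate 1 (-0.57 on the log2 scale, adjusted p = 0.995), 0.0432 without HFr replicate 1 (-0.52, adjusted p = 0.998) and 0.0406 without HFr replicate 4 (-0.52, adjusted p = 0.999). It was 0.150 without chow replicate 2 (-0.33), 0.117 without HFr replicate 2 (-0.38) and 0.191 with library size as the only scaling (-0.49). In edgeR it was also 0.0494 with robust estimation, 0.0499 without mitochondrial transcripts and 0.104 with a replicate block. Other methods gave an unadjusted p of 0.0388 (DESeq2), 0.0441 (voom with sample weights) and 0.0843 (equal-variance test of the deposited values). The lowest adjusted p over all alternatives was 0.838.

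Of the 17 tested regulators, 10 were higher and 7 lower with a median log2 fold change of 0.11, and in edgeR 0 of them were under an unadjusted 0.05. The receptors for glucagon (GCGR) and insulin (INSR) had log2 fold changes of 0.30 (standard error 0.29) and -0.12 (standard error 0.38). For HNF4A, the nuclear receptor that drives many hepatocyte genes, the value was -0.15 (standard error 0.21). MLXIPL, the carbohydrate-sensing factor ChREBP, averaged 105 ± 48.3 on HFr and 101 ± 42.3 on chow (normalized counts, SD, n = 5 each), a log2 difference of 0.048 (standard error 0.36). PPARGC1A, the coactivator of the fasting programme, ranged from 8.22 to 88.6 normalized counts on HFr and from 9.20 to 48.2 on chow (log2 fold change 0.44, standard error 0.58). FOXO1 and CREB1 were not tested because they had 0 to 6 and 0 to 2 counts per library.

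Although the diets did not separate the genes, some of the genes varied together from liver to liver. Pearson's r of log2(normalized count + 1) over the 10 animals was computed for the 28 pairs of tested genes, with p-values from 100000 permutations and adjusted over the pairs. It ranged from -0.71 to 0.85 with a median of 0.05. Pairs of all tested genes were not computed, so the counts of pairs that follow have no background share beside them. An unadjusted p under 0.05 was reached by 6 pairs, an adjusted p under 0.05 by 0 pairs with Pearson's r and by 1 pair with Spearman's rho.

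That pair was PCK2 with GCKR, at r = 0.85 (permutation p = 0.00218, adjusted 0.0610) and rho = 0.94 (permutation p = 0.000290, adjusted 0.00812). The relation was 0.86 without the 2 animals farthest from the PCK2 median, chow replicates 2 and 5, and 0.86 with the diet means removed. GCKR and SLC37A4 varied together with r = 0.79 (permutation p = 0.00587, adjusted 0.0617) and rho = 0.83 (permutation p = 0.00471, adjusted 0.0659), but r was 0.49 without chow replicates 1 and 5, so much of this relation rested on those animals. FBP1 and PC formed another pair, with r = 0.78 (permutation p = 0.00661, adjusted 0.0617), rho = 0.81 (permutation p = 0.00756, adjusted 0.0706) and r = 0.71 without HFr replicates 2 and 4.

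The r of PCK1 with these genes was negative, and 0 of its pairs passed the adjusted threshold. With PCK2 its r was -0.71 (permutation p = 0.0188, adjusted 0.132) and rho -0.75 (permutation p = 0.0168, adjusted 0.0800), and without HFr replicates 1 and 4 the r was -0.63. With GCKR its r was -0.69 (permutation p = 0.0248, adjusted 0.139), rho -0.77 (permutation p = 0.0118, adjusted 0.0800) and r without the same animals -0.54. With SLC37A4 its r was -0.49 (permutation p = 0.153, adjusted 0.429) and rho -0.68 (permutation p = 0.0345, adjusted 0.138). PC, too, had a negative r with PCK1 of -0.66 (permutation p = 0.0417, adjusted 0.195), but rho was -0.42 (permutation p = 0.232, adjusted 0.576) and r without the same animals -0.41. With FBP1 its r was -0.17 (permutation p = 0.643, adjusted 0.942) and rho -0.03 (permutation p = 0.945, adjusted 0.980). PCK1 and G6PC, both genes of the fasted liver, had r = 0.41 (permutation p = 0.242, adjusted 0.542) and rho = 0.43 (permutation p = 0.219, adjusted 0.576), and r = 0.26 without HFr replicates 1 and 4. PFKFB1 had r between -0.15 and 0.07 to the other 7 genes, but without HFr replicates 1 and 4 its r with PCK1 was -0.56. None of these r values moved by more than 0.0201 when mitochondrial transcripts were left out before normalization.

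**Figure D3:**
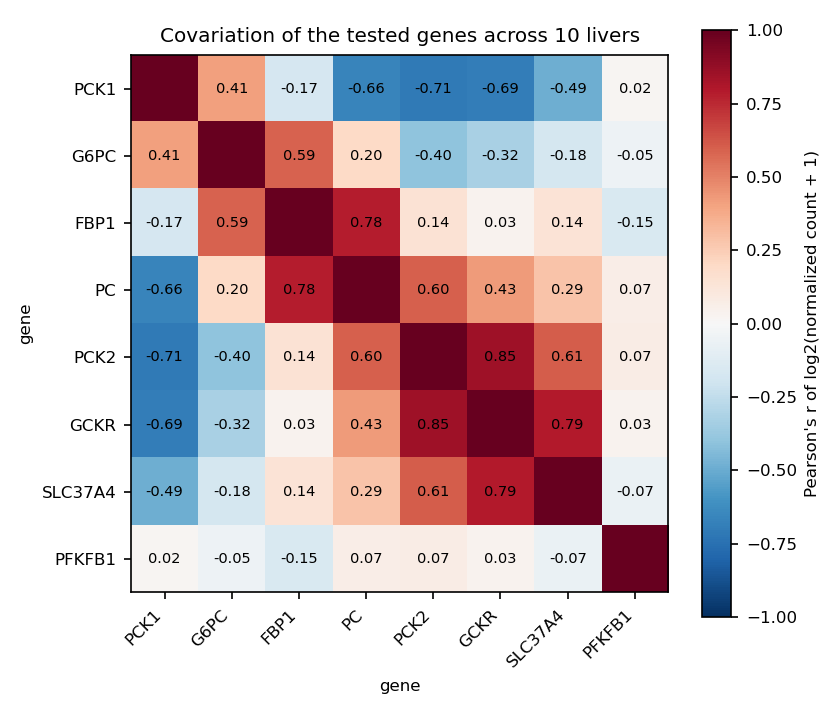
Pearson's r between the 8 tested genes over 10 livers, computed on log2(normalized count + 1). Red cells mark positive and blue cells negative r, from -0.71 (PCK1 with PCK2) to 0.85 (PCK2 with GCKR), and the PFKFB1 row is pale throughout.

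**Figure D4:**
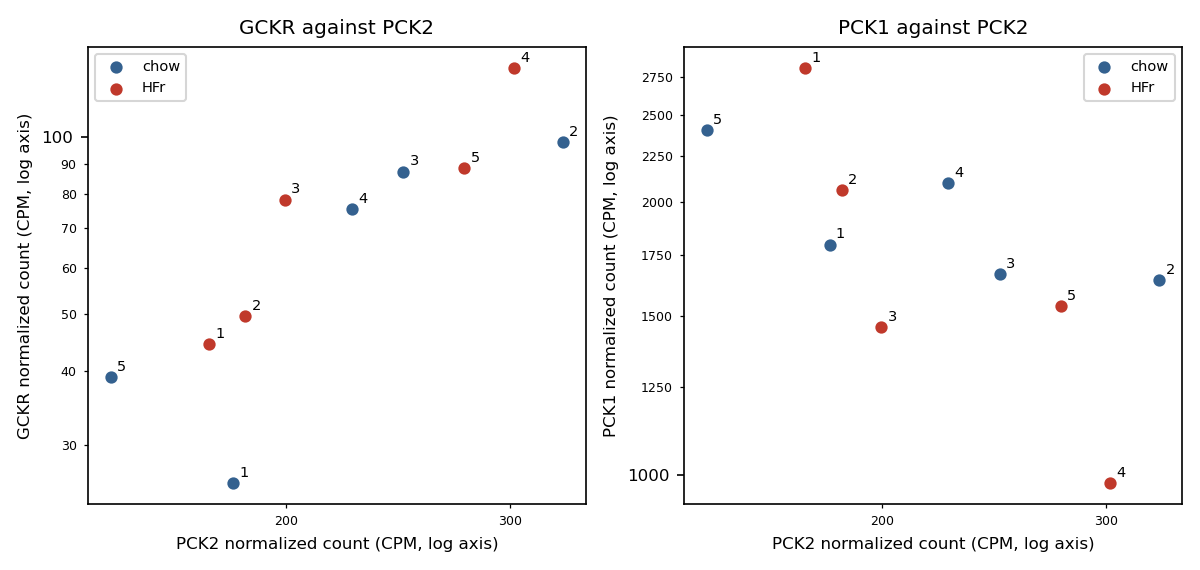
GCKR (left) and PCK1 (right) against PCK2 in each liver, as normalized counts on log axes, with points coloured by diet and labelled by replicate number. Animals of both diets are spread along the rising relation on the left (r = 0.85) and the falling relation on the right (r = -0.71).

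The mitochondrial share of the libraries, which differed among the animals, was set against the same genes. Over the 8 tested genes r with the share ran from -0.50 (PCK2) to 0.15 (PCK1), and 0 of 8 had a permutation p under 0.05 with Pearson's r. With Spearman's rho PC reached -0.68 (permutation p = 0.0350, adjusted 0.280 over the 8 genes), where r was -0.45 (permutation p = 0.192, adjusted 0.536) and -0.33 without HFr replicate 2 and chow replicate 2. Leaving out the same animals moved the r of PFKFB1 from 0.040 to -0.64. In the 5 chow animals alone, r was 0.88 for PCK1, -0.95 for PC, -0.74 for PCK2 and -0.70 for FBP1. It was -0.64 for G6PC, -0.47 for GCKR, -0.40 for SLC37A4 and -0.19 for PFKFB1. In the 5 HFr animals, the values in the same gene order were -0.21, 0.06, -0.07, -0.33, -0.11, 0.23, -0.32 and 0.27. These values within a diet were not tested, and each rests on 5 animals. With the mitochondrial percent as a covariate in edgeR, 0 of the 8 genes had an unadjusted p under 0.05 between the diets.

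The genes whose levels followed 3 of the set most closely were ranked among 7163 other tested genes by Pearson's r over the 10 animals. This is a description, since the top of so long a list is high by selection. For GCKR they were DHCR7 (r = 0.94), the last enzyme of cholesterol synthesis, TM6SF2 (0.94), which is needed for the lipidation of very low-density lipoprotein, and MTRR (0.94), which reactivates methionine synthase. For PCK1 they were NCOA1 (0.92), a coactivator of nuclear receptors, CNOT8 (0.92), a subunit of the CCR4-NOT deadenylase, and DESI1 (0.91). For G6PC they were MRPS25 (0.93), a protein of the mitochondrial ribosome, TM4SF4 (0.92) and AFDN (0.90), which encodes the junction protein afadin. Without the 2 animals farthest from the median of GCKR, its 3 r values were 0.90, 0.89 and 0.90 in the same order. The same check gave 0.80, 0.75 and 0.82 for PCK1, and 0.91, 0.72 and 0.69 for G6PC. An r above 0.8 was reached by 72 of the ranked genes with GCKR and by 34 each with PCK1 and G6PC. The ranking was not made for PKLR, which was not tested.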

How the data were processed

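Liver RNA-Seq libraries of 5 HFr and 5 chow animals were analysed, grouped by the sample titles. Reads were demultiplexed by the authors with CASAVA 1.8 and aligned to ChlSab1.1 (STAR 2.5.3a per the processing notes), and Partek Flow turned them into estimated counts per Ensembl transcript with an expectation-maximization algorithm. The authors deposited these estimated counts without normalization (97.7% of all values, and 95.02% of those above 0, were exactly whole), together with a signal table scaled by TMM, whose ratio to the counts was constant within each library to 0.00147% (values of 100 counts or more). Here the values were rounded, transcripts were kept by filterByExpr at its minimum count of 10 and minimum total of 15, and diets were compared with edgeR 4.0.16 (quasi-likelihood, TMM factors 0.607 to 1.49, diet as the only term) in R 4.3.3, with Benjamini-Hochberg adjustment over 7948 transcripts at a threshold of 0.05. The procedure was tested on simulated data. The standard error is the size of the log2 fold change divided by the square root of F. The biological coefficient of variation was 29.0%. No labels give separate batches. Pairs of libraries within a diet differed by at least 12.0 times the sampling noise (chi-square per degree of freedom).

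The genes, the lists and the tests were chosen with earlier results of these data known. Named are the 9 genes, listed pathway genes with an unadjusted p under 0.05, 13 pathway genes fixed by name (GAPDH and LDHA among them, and some not reported here), and the 3 genes most like PCK1, G6PC and GCKR. Gene starts are those listed, counted from 1, and each end is the listed stop less 1, taken as the last base. Alternatives were DESeq2 1.42.0, limma 3.58.1 (pseudocount 1 or 0.1, or voom with sample weights), an equal-variance test of the deposited values, other normalizations and filters, counts summed by gene, no mitochondrial transcripts, the mitochondrial percent as covariate, a replicate block, unrounded counts, robust estimation and each animal left out.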

Additional observations from a re-analysis of the deposited data

Results flagged for a closer look

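For 14 genes in each diet, 28 groups of 5 animals, the gap between an extreme animal and its nearest neighbour was compared with the range of the group, and 2 animals stood apart (limit 0.71 of the range). Chance alone flags about 1 in 20 groups. For PC, HFr replicate 4 stood at 81.8 normalized counts, with a range of 31.1 to 44.0 among the rest. For PKLR, chow replicate 2 had 4.82 normalized counts (22 counts), and the remaining chow livers had 0.460 to 1.52.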

How the results depend on the processing

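Among the 8 tested genes, the number under an unadjusted 0.05 was 0 under all 16 alternatives of normalization, filter, model and counting, and 0 to 1 when 1 animal was left out (FBP1, G6PC and SLC37A4, each once). No alternative gave any of the 8 an adjusted p under 0.05. The number above 0 on the log2 scale was 6 or 7, and 5 to 7 with 1 animal left out. PCK2 was reversed under library size only (-0.081), voom with sample weights (-0.027), and without HFr replicate 4 (-0.12), HFr replicate 5 (-0.07), chow replicate 1 (-0.06) or chow replicate 5 (-0.12). Without HFr replicate 4, PCK1 (0.027), PC (-0.024) and GCKR (-0.0063) were reversed as well. With 1 animal left out the log2 fold change ran from -0.36 to 0.027 for PCK1, -0.12 to 0.19 for PCK2, -0.024 to 0.45 for PC and -0.0063 to 0.47 for GCKR. FBP1 (0.32 to 0.76), G6PC (0.13 to 0.69), SLC37A4 (0.26 to 0.49) and PFKFB1 (0.051 to 0.30) kept their sign under all 26 alternatives but moved over these ranges with 1 animal left out. The pathway lists, with 1 gene under an unadjusted 0.05, had 0 with library size only, 2 with voom, the equal-variance test, robust estimation or no mitochondrial transcripts, 3 with DESeq2 or without a count filter, and 1 to 4 with an animal left out. Over all transcripts the unadjusted count of 341 became 123 with library size only and 756 of 16066 without a count filter, and 260 to 408 with an animal left out. The adjusted count of 0 became 1 with library size only and 2 with DESeq2, and was 0 to 0 with an animal left out. The cause was not tested. With diet means removed, 2 pairs of genes (PCK2 with GCKR, GCKR with SLC37A4) had an adjusted p under 0.05 against 0 pairs before.

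Animals with the same replicate number did not deviate together (r from -0.29 to 0.10 over transcripts, and 0 of 5 HFr animals were most like their own number). This cannot show whether the numbers mark matched animals, since these need not deviate together in expression. With a replicate block 0 of the 8 genes and 1 gene of the pathway lists had an unadjusted p under 0.05, and 271 transcripts did. Depth limited PKLR (1 to 22 counts) and G6PC (13 to 116 counts) most among the 9.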

Other observations

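Gluconeogenesis is known to be stronger near the portal vein and glycolysis near the central vein, so other genes of these zones were set beside the 9. Of the 7 tested periportal genes, 6 were higher and 1 lower on HFr, with a median log2 fold change of 0.13 and 1 unadjusted p under 0.05 from edgeR (UROC1, the urocanate hydratase of histidine breakdown, 0.72, standard error 0.32, unadjusted p = 0.0423). Of the 6 tested pericentral genes, 0 were higher and 6 lower, with a median of -0.25 and 0 under an unadjusted 0.05. Among these, CYP2E1 stood at 3126 ± 836 normalized counts on HFr and 3916 ± 816 on chow (SD, n = 5 each). Over all tested transcripts 49.8% were above 0, and of the 10 tested hepatocyte markers 9 were higher on HFr (median log2 fold change 0.18). The summed periportal level was 1068 to 2021 normalized counts on HFr and 991 to 1504 on chow, and the summed pericentral level 2633 to 5060 and 3902 to 5591, so both overlapped. Single genes weighed heavily in these sums. On HFr, CYP2E1 averaged 3126 of a pericentral mean of 3700, and ARG1 averaged 735 of a periportal mean of 1421. SDS, a periportal enzyme that feeds serine into pyruvate, spanned 4.15 to 427 normalized counts among the HFr animals alone.

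Markers of other liver cells overlapped between the diets in summed level. Macrophage markers summed to 47.6 to 201 normalized counts on HFr and 53.9 to 219 on chow, lymphocyte markers to 32.2 to 54.5 and 30.2 to 45.04, and blood cell markers to 103 to 350 and 63.9 to 349. Cholangiocyte markers summed to 5.998 to 28.7 and 10.1 to 32.9, stellate cell and fibroblast markers to 260 to 494 and 220 to 921, and endothelial markers to 325 to 409 and 254 to 426. Among the 28 tested markers of these lists, 2 (7.14%, against 4.29% of all tested transcripts) had an unadjusted p under 0.05 from edgeR, namely ACTA2 (stellate cells, -1.57 on the log2 scale) and KDR (endothelial cells, 0.57), and 0 had an adjusted p under 0.05. Their part in the levels of the 9 genes was not tested.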
